A study of Mus musculus with 6 samples.

Results

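miR-10a and miR-10b are a pair of microRNAs made from the hairpins Mir10a and Mir10b, 2 of the 1174 annotated mouse hairpins to which reads were matched. They were chosen by their measured levels in these same libraries, as the reads of each arm per 1000000 hairpin reads (RPM) compared between paralogs, arms and samples of the same replicate number. Those levels and their change with LPS are therefore given as a description. The fit across all arms is cited only for its values and counts, from which nothing is read about the members. Tests were made on features that the choice did not use, namely where the reads of each arm start and end.

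Small RNAs were sequenced from cultured bone marrow monocytes (BMMs) of wild-type C57BL/6 mice, with 3 Control samples that received PBS and 3 LPS samples that received 5 pg/ml lipopolysaccharide, the endotoxin of Gram-negative bacteria, for 4 h. The labels do not say whether replicates came from separate mice or cultures, so any p-value measures only the spread between these samples. Both groups share the strain, the genotype and the culture, and no agent other than LPS separates them. The libraries held 2201520 to 17691405 reads, of which 1496303 to 10913216 were hairpin reads, that is, reads of 18 nt or more that matched a hairpin.

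LPS replicate 2 stood apart from the other 5 libraries. It was the deepest library, and 18.65% of its distinct sequences were seen a single time, against 67.1% to 74.65% in the other 5. Mir146-5p, an arm of the LPS-inducible miR-146a, stood at 55499 RPM in it, against 2826 to 4522 RPM in the other 5 samples. Over 276 arms with at least 10 reads in every sample, the chi-square per degree of freedom between libraries was 7.52 for Control and LPS replicate 1 and 4.92 for Control and LPS replicate 3. It was 70.5 to 2202 for the other 13 pairs of libraries, Control and LPS replicate 2 included. Many of the results that rest on LPS replicate 2 are given with and without it.

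The miR-10 genes lie within the Hox clusters, the arrays of transcription factor genes that set position along the body axis, and are often transcribed together with their Hox neighbours. A microRNA hairpin is cut into a 5p and a 3p arm, one of which is usually loaded into an Argonaute protein while the other is degraded. The loaded strand finds its messenger RNAs mainly through the seed, bases 2 to 8 counted from its 5′ end, and lowers their translation and stability. In blood vessel and myeloid cells miR-10a and miR-10b are known as regulators of NF-κB signalling and of cholesterol efflux.

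The mature sequences of the 4 arms, from RefSeq on GRCm38.p6, are shown because the whole separation of the paralogs rests on them. The seed is in capitals.
miR-10a-5p: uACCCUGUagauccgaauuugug
miR-10b-5p: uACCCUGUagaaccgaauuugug
miR-10a-3p: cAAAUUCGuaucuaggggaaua
miR-10b-3p: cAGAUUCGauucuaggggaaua
The 5p arms have the same seed, ACCCUGU, and are identical at 22 of 23 bases. They differ by U12A, with the base of miR-10a first, the position counted from 1 at the 5′ end, and the base of miR-10b last. The 3p arms are identical at 19 of 22 bases and differ by A3G, U9A and A10U, the first of which falls in the seed. A read of either 5p arm can be told from the other only by the base at position 12.

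The closest relatives by sequence are miR-99a, miR-99b and miR-100, whose 5p arms share the ACCC run at the start of the seed but continue differently. They are printed for comparison, with the seed in capitals.
miR-99a-5p: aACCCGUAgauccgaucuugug
miR-99b-5p: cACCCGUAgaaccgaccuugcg
miR-100-5p: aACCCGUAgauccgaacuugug
All 3 share the seed ACCCGUA, which is not the seed of miR-10.

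On GRCm38, Mir10a is at chr11:96317165-96317274 on the plus strand and its 5p arm at chr11:96317186-96317208. The annotation places no other gene over it, with Hoxb4 starting 993 bases downstream and Hoxb5 ending 11044 bases upstream. Mir10b is at chr2:74726070-74726137, also on the plus strand, with its 5p arm at chr2:74726074-74726096. It overlaps 3 transcripts of the same strand, of Hoxd3 and Hoxd4, and lies in an intron of each and in an exon of 0 of them.

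miR-10a-5p was among the most abundant microRNAs of these cells, while its paralog was close to the limit of what these libraries could count. In Control replicates 1, 2 and 3, the level of miR-10a-5p was 37150, 27417 and 33857 RPM. In the LPS samples of the same numbers it was 36606, 16670 and 33235 RPM. It ranked 4th or 5th among all arms in 5 samples and 14th in LPS replicate 2. In the order of levels, the samples of replicate number 1 were highest, those of number 3 next and those of number 2 lowest, so that Control and LPS samples alternated and the groups overlapped. The mean was 32808 ± 4950 (SD, n = 3) in Control and 28837 ± 10671 (SD, n = 3) with LPS, and the means differed by less than the SD of either group. Without LPS replicate 2 the LPS mean was 34921 ± 2384 (SD, n = 2).

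The 3p arm of Mir10a, the strand that is usually discarded, had 32 to 353 reads a sample. Its level was 19.2, 18.7 and 26.7 RPM in Control replicates 1, 2 and 3, and 16.1, 32.3 and 36.8 with LPS. The groups overlapped, with the lowest sample of all in the LPS group. For each 3p read there were 1937, 1466 and 1270 reads of the 5p arm in the Control samples and 2272, 515 and 904 in the LPS samples. The 3p arm thus made up between 0.044% and 0.194% of the Mir10a reads, and the largest share was that of LPS replicate 2.

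miR-10b-5p was counted 13, 12 and 11 times in Control replicates 1, 2 and 3 and 10, 45 and 5 times with LPS. That is 5.09, 7.01 and 4.66 RPM in Control and 3.16, 4.12 and 3.34 with LPS, and every LPS sample was below every Control sample. The counting errors are wide, with a 95% Wilson interval of 1.43 to 7.82 RPM for LPS replicate 3 and of 4.01 to 12.3 for Control replicate 2, and the intervals cover counting error only. Relative to its paralog, miR-10b-5p was rarer by a factor of 7300, 3910 and 7271 in the Control samples and of 11588, 4043 and 9946 in the LPS samples. On this scale the groups overlapped. With the mean count of reads that carry a base of neither paralog at position 12 taken off, the factors were 13558, 5865 and 26659 in Control and 115884, 5965 and 99460 with LPS, where LPS replicates 1 and 3 keep at most 1 read. miR-10b-3p had 0 reads in all 6 samples, which allows a level of up to 0.275 RPM in the deepest library and up to 2.01 in the shallowest. If Mir10b had the ratio of 5p to 3p reads seen for Mir10a, only 0.0044 to 0.0873 reads of its 3p arm would be expected in a sample, so whether this arm is made was not detectable at this depth.

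**Figure D1:**
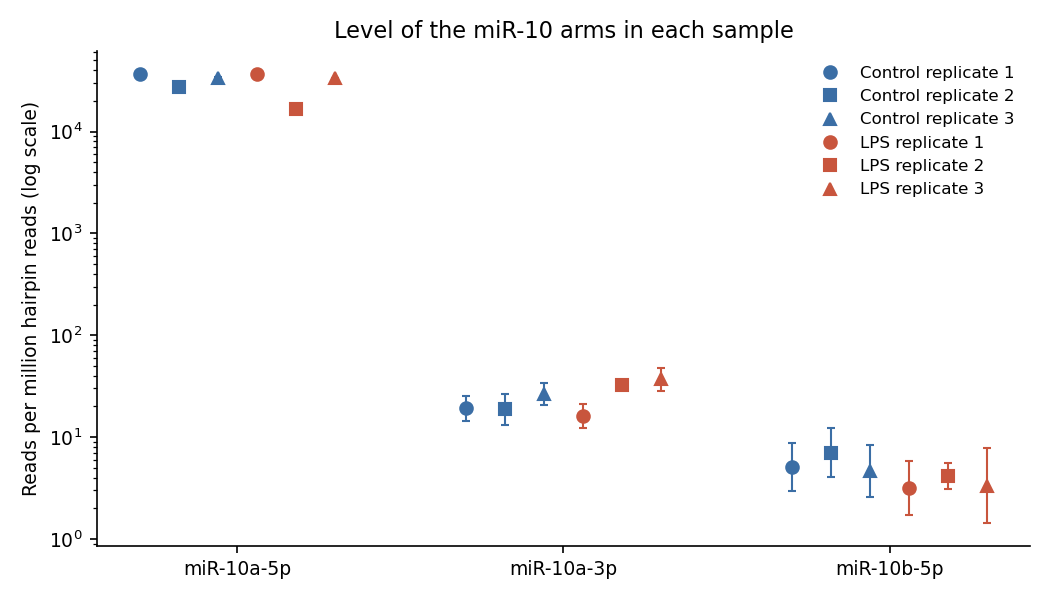
Level of the 3 arms with reads in each sample, in RPM on a log axis, with 95% Wilson intervals for counting error. Colours mark the groups and symbols the replicate numbers. miR-10a-5p lies between 16670 and 37150, miR-10a-3p between 16.1 and 36.8 and miR-10b-5p between 3.16 and 7.01, and miR-10b-3p, with 0 reads, is not drawn.

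The comparison with LPS asks whether a dose of endotoxin far below that of acute experiments shifts these microRNAs. In the edgeR quasi-likelihood fit over 318 arms, 0 of the 3 member arms with reads were called at an adjusted p of 0.05, where the share over all arms tested was 0%. As the members were chosen on this contrast, this count is no test of them. At an unadjusted p under 0.05 the same fit held 8 of the 318 arms, DESeq2 4 and limma-voom 5. The log2 fold change of LPS over Control was -0.21 (SE 0.31) for miR-10a-5p, -0.61 (SE 0.31) for miR-10b-5p and 0.37 (SE 0.32) for miR-10a-3p, beside a median of 0.008 over all arms tested. These SEs were computed from the change and its quasi-likelihood F statistic. For miR-10b-5p, DESeq2 gave -0.62 (SE 0.60) and the edgeR fit without a count filter -0.60 (SE 0.55). In the other fits its SE was 0.256 to 0.433. The changes of both Mir10a arms moved with LPS replicate 2, without which they were 0.04 for miR-10a-5p and 0.18 for miR-10a-3p, beside -0.79 for miR-10b-5p. Leaving out LPS replicate 3 or 1 also moved that of miR-10a-3p, to 0.20 and 0.64, and leaving out LPS replicate 1 or Control replicate 1 or 2 moved that of miR-10a-5p to -0.45, -0.06 and -0.31. Within replicate numbers 1, 2 and 3 the log2 ratio of LPS to Control was -0.02, -0.72 and -0.03 for miR-10a-5p, -0.25, 0.79 and 0.46 for miR-10a-3p, and -0.69, -0.77 and -0.48 for miR-10b-5p. In bulk samples, fewer cells of a type and less RNA per cell cannot be told apart.

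Of the 3 arms, 1, miR-10b-5p, had groups that did not overlap in normalized counts, all LPS samples being lower. The same was true of 5 of the 318 arms, or 1.57%, and a further 5 were higher without overlap. As this contrast was in view when the members were chosen, nothing is read from that count. Per 100000 reads of miR-10a-5p the groups did overlap, with 13.7, 25.6 and 13.8 reads of miR-10b-5p in Control and 8.63, 24.7 and 10.1 with LPS, and both samples of replicate number 2 were the high ones.

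Because a single base separates the 5p arms and miR-10a-5p is by far the more frequent, the reads with other bases at position 12 were counted in the same way. A read of miR-10a-5p with U12A has the sequence of miR-10b-5p, while one with U12C or U12G has the sequence of neither. Over the 6 samples there were 96 reads with U12A, 67 with U12C and 25 with U12G, or 16.9, 11.8 and 4.39 per 100000 reads of miR-10a-5p. Without LPS replicate 2 these were 13.2, 11.6 and 4.65. In Control replicates 1, 2 and 3 there were 13, 12 and 11 reads with U12A beside 12, 5 and 10 with U12C. In the LPS samples there were 10, 45 and 5 beside 10, 22 and 8. The samples in which U12A was clearly more frequent than U12C were thus those of replicate number 2, and in LPS replicate 3 it was the less frequent. When the mean of U12C and U12G was taken from each count, 7, 8 and 3 reads of miR-10b-5p remained in Control and 1, 30.5 and 0.5 with LPS.

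All single-base changes of the most frequent read of miR-10a-5p, 22 nt long, gave a wider view. Its 20 inner positions, 2 to 21, allow 60 changes, which occurred at 0 to 59.8 per 100000 with a median of 8.41. The most frequent was A2G. The change that gives miR-10b, U12A, occurred at 16.8 per 100000, and 13 of the 60 were more frequent. Without LPS replicate 2 it occurred at 10.02 beside a median of 9.495, and 25 were more frequent. Among the inner changes from U to A alone, U12A was the most frequent over the 6 samples, ahead of U18A at 12.9. Without LPS replicate 2, U18A was the most frequent of them, at 16.9. Taken library by library, between 6 changes, in LPS replicate 2, and 31, in LPS replicate 1, were more frequent than the one that gives miR-10b. What part of the miR-10b-5p count comes from miR-10a reads with a wrong base was not tested.

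**Figure D2:**
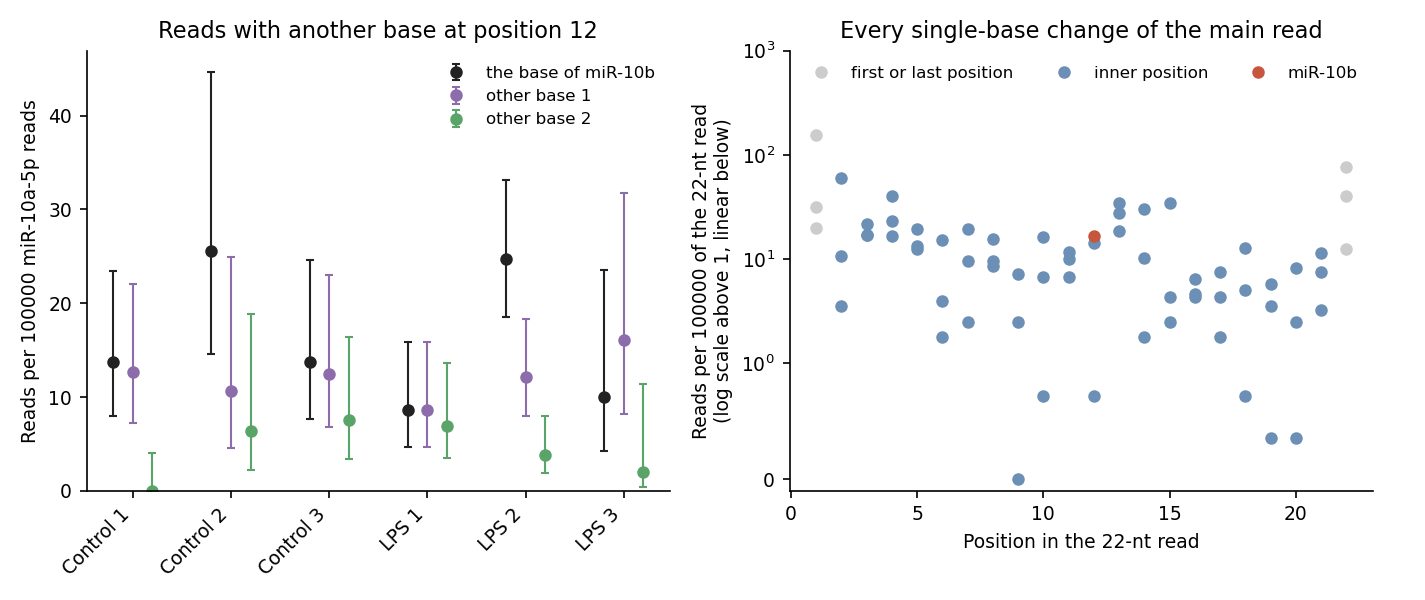
Left, reads with each of the 3 other bases at position 12 per 100000 reads of miR-10a-5p in each sample, with 95% Wilson intervals. Right, the rate of every single-base change of the most frequent miR-10a-5p read against its position, over the 6 samples. The change that gives miR-10b (red, 16.8 per 100000) lies among the inner changes, whose median is 8.41, and the base of miR-10b exceeds the other bases most in LPS 2 and Control 2.

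The reads of miR-10a-5p were not a single molecule but a family of 212 distinct reads that varied at both ends. Between libraries, 23.58% to 25.67% of a sample's reads started at base 2 of the RefSeq sequence. Without added bases, 28.57% to 32.97% ended at the RefSeq end and 51.69% to 54.92% ended 1 base short of it. The 4 most frequent reads are printed because they show the variation at both ends, and the capitals mark bases 2 to 8 of each read.
most frequent: uACCCUGUagauccgaauuugu
next, the RefSeq sequence: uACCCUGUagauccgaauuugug
next, starting at base 2: aCCCUGUAgauccgaauuugug
next, starting at base 2 and shorter: aCCCUGUAgauccgaauuugu
The most frequent, 22 nt long and 1 base shorter than the RefSeq sequence, made up 48.7% ± 1.3 (SD, n = 6) of the arm. The RefSeq sequence itself came second with 16.6% ± 0.88 (SD, n = 6). The pair that starts at base 2, at 14.5% and 4.07%, begins 1 base inside the RefSeq start, so its bases 2 to 8 read CCCUGUA in place of ACCCUGU.

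Reads starting at base 2 made up 24.01%, 25.7% and 25.4% of miR-10a-5p in Control replicates 1, 2 and 3, and 23.6%, 23.9% and 25.7% with LPS. Reads starting at base 1 made up 74.1% on average and those starting 1 base before it 0.939%. The base-2 share had an SD of 0.983 percentage points over 6 samples. LPS minus Control was -0.66 percentage points (exact permutation test, two-sided, p = 0.5, adjusted over 4 shares 0.933), in a design whose smallest possible p is 0.1. It was -0.41 without LPS replicate 2 and ranged from -1.31 to -0.27 as each sample was left out. In level, the base-2 reads alone reached 8920, 7033 and 8608 RPM in Control and 8630, 3977 and 8531 with LPS. Counted as a microRNA of their own, they would have stood below only 15 to 21 of the 963 arms with reads in 5 samples and below 33 in LPS replicate 2.

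miR-99a-5p and miR-99b-5p seldom had this start, and miR-100-5p was not compared. Reads starting at base 2 were 0.0427% of miR-99a-5p and 0.37% of miR-99b-5p on average. The share was higher for miR-10a-5p in 6 of 6 samples, by 24.7 ± 0.96 and 24.3 ± 0.97 percentage points (SD, n = 6). Each difference had p = 0.03125 in an exact sign-flip permutation test, two-sided and adjusted over the 2 comparisons, which is the smallest p that 6 samples can give. With the samples of each replicate number flipped together, as a replicate block, the adjusted p was 0.25, the smallest that 3 pairs can give, so both calls were lost. This comparison was chosen after the shares had been seen. Among 73 arms with at least 1000 reads a sample on average, miR-10a-5p ranked 4th for this share, behind Mir140-3p (46.7%), Mir1839-5p (39.1%) and Mir101b-3p (36.4%), and the median arm had 0.186%. These starts are counted from the RefSeq start, so the share of an arm also depends on which start its RefSeq entry records.

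**Figure D3:**
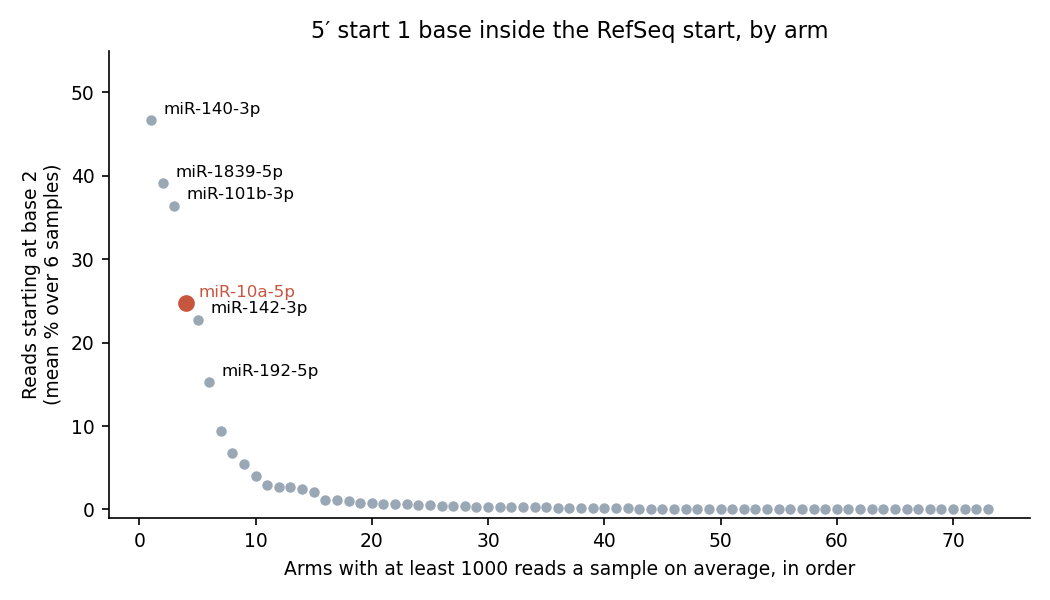
Mean share over 6 samples of reads starting at base 2, in percent, for the 73 arms with at least 1000 reads a sample on average, in falling order. miR-10a-5p (red) is 4th at 24.7%, and the median arm is at 0.186%.

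The start of a miR-10a-5p read went with its end. Of the reads starting at base 1, 65.7% ± 0.93 (SD, n = 6) ended 1 base short of the RefSeq end and 22.4% ± 1.4 ended at it. Of those starting at base 2, the order turned, with 16.5% ± 0.96 ending 1 base short and 58.6% ± 3.0 at the RefSeq end. Reads that began 1 base later thus mostly also ended 1 base later, and 22 nt was the commonest length with either start, at 65.8% ± 0.93 for base 1 and 58.8% ± 3.0 for base 2. The share at the RefSeq end was higher for base-2 reads by 36.1 percentage points in 6 of 6 samples, and the share 1 base short differed by -49.2 points, lower in 6 of 6. The share of 22 nt differed by -7.04 points. For each of these, p = 0.03125 by the exact sign-flip permutation test, two-sided, adjusted over 4 measures chosen after the reads had been seen, and no smaller p was possible. As a replicate block the adjusted p was 0.25 for each, again the smallest possible, and the calls were lost.

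Bases that the hairpin does not encode were found at the 3′ end of 7.19% ± 0.42 (SD, n = 6) of miR-10a-5p reads. A single added A accounted for most of them, in 6.015% of reads on average and in 5.55% to 6.55% of each sample. An added U cannot be told from the hairpin at the RefSeq end, where the next encoded base is U. Such reads, 1 base past that end, were 5.27% ± 0.71, and 5.52% ± 0.41 (SD, n = 5) without LPS replicate 2. Nor can an added G be told from the hairpin after a read 1 base short, where the next encoded base is G. Added bases that could be told were again tied to the start, at 5.01% ± 0.31 of base-1 reads and 13.9% ± 1.1 of base-2 reads, higher in 6 of 6 samples (p = 0.03125 in the same exact permutation test and adjustment, and 0.25 as a replicate block). Reads of the 2 starts differ in their commonest end, so these limits fall on them unequally. Their part in this difference was not tested. A single added G that could be told was found in 0.664% to 1.01% of reads in 5 samples and in 0.0451% in LPS replicate 2. With LPS the share of all added bases was 0.06 points higher (exact permutation test, p = 0.7, adjusted 0.933) and that of reads 1 base short 0.16 points higher (p = 1). The share equal to the RefSeq sequence was 0.43 points higher (p = 0.6, adjusted 0.933, by the same exact test). These 3 differences moved with single libraries. Without LPS replicate 2 they were 0.29, -0.09 and 0.06 points, and with each sample left out they ranged from -0.19 to 0.29, from -0.48 to 1.04 and from 0.0035 to 1.07.

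**Figure D4:**
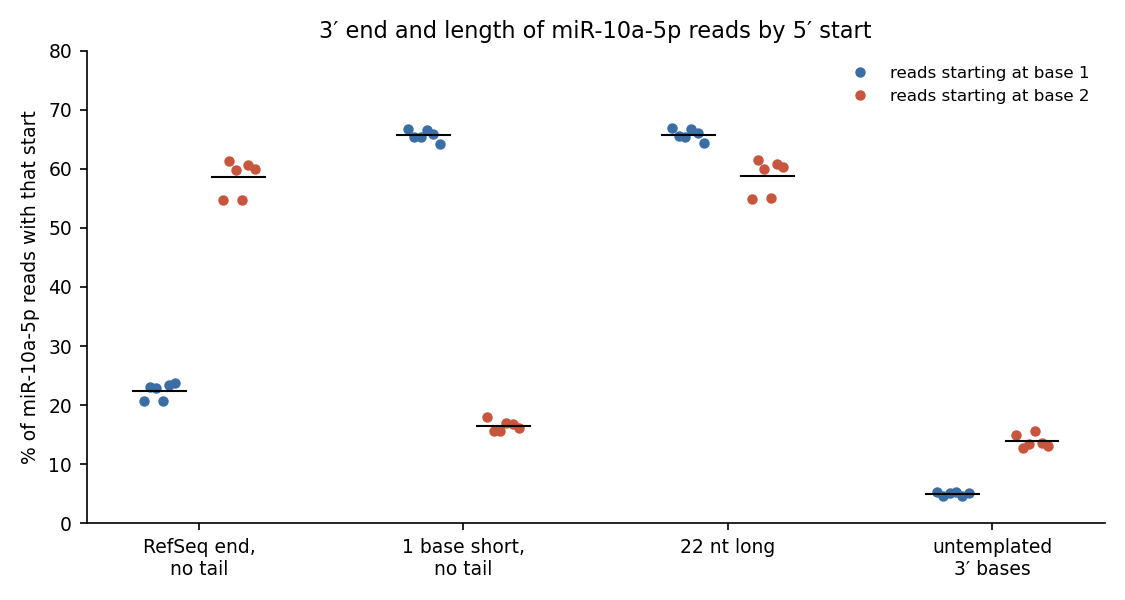
Share of miR-10a-5p reads with each 3′ end, with a length of 22 nt, or with untemplated 3′ bases, in percent of the reads that start at base 1 (blue) or base 2 (red). Points are the 6 samples in the order Control 1 to LPS 3 and lines are means. The share at the RefSeq end is 22.4% for base-1 and 58.6% for base-2 reads, and the share 1 base short is 65.7% and 16.5%.

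The 12 distinct reads of miR-10b-5p all had a counterpart of miR-10a-5p with the same ends. Of its 96 reads, the most frequent was again the 22-nt read that starts at base 1, with 47 reads, and the 22-nt read that starts at base 2 followed in mean share. They are printed with bases 2 to 8 in capitals.
most frequent: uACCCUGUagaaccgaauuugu
second by mean share: aCCCUGUAgaaccgaauuugug
The share starting at base 2 was 38.5%, 58.3% and 36.4% in Control and 40%, 11.1% and 60% with LPS, a spread that 5 to 45 reads a sample make hard to interpret. Against miR-10a-5p within the same sample, this share differed by -16.0 ± 17.1 percentage points (SD, n = 6; exact sign-flip permutation test, p = 0.0938, adjusted over 4 shares 0.312). The shares 1 base short, with added bases and equal to the RefSeq sequence differed by 3.85, 0.43 and 7.31 points (adjusted exact permutation p = 0.583, 0.938 and 0.312). Without LPS replicate 2 the 4 differences were -21.8, 6.28, -0.39 and 10.2 points. The share 1 base short ranged from 0.788 without Control replicate 2 to 6.28 without LPS replicate 3, and that of added bases from -1.01 without Control replicate 1 to 3.08 without LPS replicate 3. Between the groups, the share of miR-10b-5p reads 1 base short averaged 41.65% in Control and 57.4% with LPS (exact permutation test, p = 0.1, the smallest possible, adjusted over 4 shares 0.4). None passed, and with so few reads this does not show that the ends of the paralogs are alike.

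The 3p arm of Mir10a had 603 reads of 28 sequences over the 6 samples. The most frequent is printed because it too differs from RefSeq in its last base, with bases 2 to 8 in capitals.
miR-10a-3p, most frequent: cAAAUUCGuaucuaggggaau
It made up 64.4% ± 4.6 (SD, n = 6) of the arm, whereas the RefSeq sequence of 22 nt made up 1.92%. Reads of this arm starting 1 base later were led by the sequences at 4.09% and 3.44%.

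As the start of a read sets which bases form its seed, matches to both seeds were counted in the longest annotated 3′ UTR of each of 21020 coding genes of GENCODE M21, on the sense strand. The 7-base match ACAGGGT, complementary to bases 2 to 8 of base-1 reads, was in 2628 UTRs, or 12.5%. The match TACAGGG, for base-2 reads, was in 1618, or 7.7%, and TACGGGT, for miR-99 and miR-100, in 232, or 1.1%. The first 2 motifs overlap by 6 bases and were both present in 690 UTRs, which is 26.3% of those with the first and 42.65% of those with the second. A match is a description of the letters and not a binding site.

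Genes that miR-10 is known or proposed to repress were looked up by name. The UTRs of Abca1 and Abcg1, the cholesterol efflux transporters, each had 1 match of both kinds, at positions 15 and 175 of the Abca1 UTR and 1914 and 2378 of the Abcg1 UTR. Map3k7, the TAK1 kinase upstream of NF-κB, had 2 matches to base-1 reads, at 581 and 645, and 0 to base-2 reads. The transcriptional repressor Bcl6 had 1 match, at 991, for base-1 reads. Hoxd10, Klf4 and the ubiquitin ligase subunit Btrc had 0 matches of either kind in this window. The UTRs of Abca1, Abcg1 and Map3k7 were 3156, 3703 and 3934 nt long. Those of Bcl6, Btrc, Hoxd10 and Klf4 were 1073, 2556, 737 and 982 nt long. The shares over all UTRs given above were not matched for length. No messenger RNA was measured here.

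Among the relatives miR-99a, miR-99b and miR-100, no arm passed the test between the groups. Of their 6 arms with reads, 5 were tested by edgeR, 0 were higher and 0 lower, and the median log2 fold change was -0.16. Their summed level was 6769 to 10910 RPM in Control and 6540 to 10811 with LPS, mostly miR-99b-5p, against at most 11.7 for miR-100-5p in any sample. Of the other microRNAs of the Hox clusters, 3 of 4 (Mir196a-2, Mir196b and Mir615) had reads, their summed level was 0 to 6.43 RPM in Control and 2.01 to 5.86 with LPS, and 0 of their arms had enough reads to be tested. Within this group of Hox-cluster microRNAs, miR-10a-5p was the abundant member, while miR-10b-5p, at 3.16 to 7.01, was near the summed level of the others.

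The arms whose levels across the 6 samples were most like those of miR-10a-5p, among 194 arms with a mean of at least 100 normalized counts, were Mir181a-2-3p (Pearson r = 0.995 over 6 samples), Mir151-3p (0.984), Mir450-1/Mir450-2-5p (0.970), Mir181a-1/Mir181a-2-5p (0.967) and Mir26a-1/Mir26a-2-5p (0.967). All share the low value of LPS replicate 2, and without that sample r was 0.976, 0.889, 0.789, 0.858 and 0.996. For miR-10b-5p they were Mir27a-3p (0.913), Mir23a-3p (0.848), Mir223-3p (0.763), Mir28a-5p (0.742) and Mir148b-5p (0.734). The last 5 rest on 5 to 45 reads of miR-10b-5p a sample. All values come from the same libraries and scaling, and the order is a description.

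The cell type in the labels was checked against microRNAs known for cell types. The myeloid arms of Mir223, Mir142, Mir155 and Mir146 summed to 38204 to 41056 RPM in Control and 37561 to 87718 with LPS, the highest being LPS replicate 2. Of the sum in that sample, the LPS-inducible Mir146-5p made up 55499. Mir142-5p was lowest there, at 18131 against 23320 to 27110 in the other samples. Mir142-3p was highest there, at 7767 against 3745 to 4730, and Mir223-3p, at 5701, lay within their range. Epithelial markers, 12 of 12 with reads, summed to 1064 to 1306 in Control and 1062 to 1270 with LPS, mostly Mir192-5p, and 0 of their 7 arms tested by edgeR passed. In LPS replicate 2, where miR-10a-5p was lowest, the epithelial sum was 1168 RPM and single markers went both ways. Mir194-1/Mir194-2-5p was at 160.1 RPM against 37.2 to 53.8 in the other 5 samples. Mir200a-3p was at 43.7 against 5.26 to 12.7, Mir200b-3p at 58 against 26.6 to 43.4 and Mir200c-3p at 29.6 against 0.948 to 4.09. Mir192-5p was lowest there, at 825.7 against 903 to 1149. Mir141-3p (20.6 against 15.4 to 38.0), Mir429-3p (15.9 against 13.7 to 20.7) and Mir215-5p (3.48 against 3.34 to 6.26) lay within the range of the others. Stromal and muscle markers summed to 7.35 to 14.2, endothelial Mir126a to 33.8 to 50.4, lymphoid Mir150 to 14.9 to 49.3 and neuronal markers to 0.367 to 3.48. The erythroid pair Mir451a and Mir144 did not exceed 1.17 and liver Mir122 did not exceed 1.83 in any sample. Their part in the miR-10 levels was not tested.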

How the data were processed

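The members, lists and tests were chosen with earlier results of these data known. The files the authors deposited hold raw counts of each distinct adaptor-trimmed read of 11 to 40 nt in 6 libraries (TruSeq small RNA kit, HiSeq 1000), without microRNA names. Trimming used perl scripts and Btrim64. The submitters' processing notes name the build mm9, and the files hold no coordinates. The authors' own quantification was not used here.

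Each read of 18 nt or longer was compared with 1174 GENCODE M21 hairpins (GRCm38). It was counted for an arm where at least 18 bases fitted without mismatch and no more than 3 bases were unmatched at the 3′ end. Arms with 50% or more of their reads in common were merged. Reads with an inner error are lost, and PCR copies cannot be told apart. edgeR 4.0.16 (R 4.3.3) with filterByExpr, TMM and the quasi-likelihood test was run on all 318 arms that passed of 963, with Benjamini-Hochberg adjustment at 0.05. Shares were compared by exact permutation tests (scipy), with 95% Wilson intervals, and 0 counts were given the limit of 3 counts. Scripts were tested on simulated data. Other settings tried were limma-voom (limma 3.58.1), DESeq2 1.42.0, hairpin totals, other filters, other read matching, a replicate block and each sample left out.

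The sample labels give the same replicate numbers to both groups. Deviations from the group means correlated at 0.588, 0.256 and 0.283 for samples of the same number and at -0.387 to 0.151 for others. For number 2 the gap was small, 0.256 beside 0.151 for Control replicate 3 with LPS replicate 2. The numbers were taken to pair the samples in the replicate block only. The main edgeR fit and the permutation tests between the groups used the group alone. Named arms are the members, the 5 arms most correlated with each 5p arm among those with a mean of at least 100 normalized counts, and the members of fixed lists. One gene of the seed-match list is not reported here. Mir126 and Mir145 were matched as Mir126a and Mir145a. The labels give DMEM as medium where the study's methods give RPMI.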

Additional observations from a re-analysis of the deposited data

How the results depend on the processing

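Under every alternative run, none of the 3 log2 fold changes moved by more than the spread between replicates. That spread was 0.473 for miR-10a-5p, 0.287 for miR-10b-5p and 0.443 for miR-10a-3p. For both Mir10a arms it exceeded the change itself, so even a change of sign stayed within it and stability is not shown. With a sample left out they ranged from -0.446 to 0.043 for miR-10a-5p, from -0.791 to -0.429 for miR-10b-5p and from 0.179 to 0.640 for miR-10a-3p. With the replicate block they were -0.276, -0.694 and 0.321. miR-10b-5p could not be fitted with at least 10 reads in every sample. Without a count filter 20 arms were called higher, of 963 tested, and 0 lower. That fit was not repeated without LPS replicate 2.

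The mean ratio of miR-10a-5p to miR-10b-5p, 7343, became 44565 when the mean of the other bases at position 12 was taken from the miR-10b-5p count, and 6494 to 8030 with a sample left out. The ratio of 5p to 3p reads of Mir10a, 1394, ranged from 1218 to 1570.

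With a sample left out, no exact test of 5 samples can go below 0.0625, so the calls on starts and ends were lost by construction. Their differences ranged from 24.46 to 24.88 points against miR-99a-5p, 24.13 to 24.56 against miR-99b-5p, 35.73 to 36.57 for the RefSeq end, -49.41 to -49.03 for 1 base short, -7.636 to -6.068 for 22 nt and 8.601 to 9.052 for added bases. With the replicate block, unchanged differences of 24.66, 24.33, 36.14, -49.17, -7.039 and 8.866 points had an adjusted p of 0.25, the smallest possible, and the pairing changed no other call. Differences that changed sign, none past the threshold, were added bases of miR-10a-5p against miR-10b-5p (-1.007 to 3.083) and, for LPS, reads 1 base short (-0.4783 to 1.043) and added bases (-0.1922 to 0.2945). The depth of miR-10b-5p, 5 to 45 reads a sample, limits every statement on it.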
